A study of Mus musculus with 12 samples.

Results

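The 39 genes described here encode the enzymes and carriers that take up glucose and turn it into lactate, the pentose phosphate enzymes, the gatekeepers of pyruvate oxidation, and the factors that sense and answer low oxygen. Open chromatin around them was measured by ATAC-seq: a transposase cuts nuclear DNA where it is exposed and tags the fragments for sequencing. Peaks from 12 libraries were merged where they overlapped or touched, regions present in at least 2 lists were kept, and those within 10 kb of the mm10 span of a named gene were taken as its regions. This gave 228 regions of 76042 in all (0.3%), 1 to 14 per gene with a median of 6, and no region was shared between genes. Of the 228, 134 overlapped the gene and 116 (50.9%) were called in all 12 libraries, against 26378 of all regions (34.7%).

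The cells were RAW264.7, a mouse macrophage line, in stable derivatives that express either Nur77 or green fluorescent protein (GFP) when doxycycline is given. Nur77 is a nuclear receptor encoded by Nr4a1. The 4 groups of 3 libraries each were the Nur77 line with lipopolysaccharide (LPS, a bacterial endotoxin) at 500 ng/ml for 1 h, the Nur77 line untreated, the GFP line with the same LPS, and the GFP line untreated. All 12 samples, the controls included, had been kept in doxycycline at 1 µg/ml for 18 h. The labels do not state whether each line was a clone or a pool, whether the replicates were separate cultures, or how much Nur77 was made, so p-values measure the spread between these libraries, which may be technical. Each line stands for 1 transfected derivative, so the introduced gene and any other difference between the derivatives cannot be told apart.

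Glycolysis splits glucose into pyruvate in the cytosol. Macrophages activated by LPS are known to raise glucose uptake and to convert pyruvate to lactate even where oxygen is present. The factor HIF-1, made of HIF-1 alpha (Hif1a) and its partner ARNT (Arnt), binds hypoxia response elements near many of these genes. In oxygenated cells the prolyl hydroxylases of the Egln genes mark HIF-1 alpha for capture by the Vhl protein and for destruction.

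Promoter sequences of 5 genes on which the results below turn are shown, from 250 bases before to 50 after the annotated start, read 5′ to 3′ on the strand of the gene. They come from RefSeq (GRCm38.p6, the assembly of mm10). Capitals mark ACGTG on either strand, the core of the hypoxia response element, except at Eno1, where they mark AAAGGTCA, the element bound by single molecules of Nur77 and its relatives.
Bnip3 (chr7:138909457-138909756, minus strand): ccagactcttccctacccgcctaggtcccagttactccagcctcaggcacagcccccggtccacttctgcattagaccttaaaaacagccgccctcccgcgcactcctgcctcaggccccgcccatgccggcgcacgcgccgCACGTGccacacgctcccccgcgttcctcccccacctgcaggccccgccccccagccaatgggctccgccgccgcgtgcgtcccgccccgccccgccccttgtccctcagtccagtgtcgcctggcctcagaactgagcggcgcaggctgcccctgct
Ldha (chr7:46845554-46845853, plus strand): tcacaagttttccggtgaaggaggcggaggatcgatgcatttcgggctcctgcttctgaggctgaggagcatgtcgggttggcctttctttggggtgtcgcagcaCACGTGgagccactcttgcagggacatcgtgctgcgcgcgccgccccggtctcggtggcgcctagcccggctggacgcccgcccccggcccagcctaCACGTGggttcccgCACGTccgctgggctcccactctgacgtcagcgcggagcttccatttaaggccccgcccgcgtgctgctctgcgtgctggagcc
Egln1 (chr8:124949205-124949504, minus strand): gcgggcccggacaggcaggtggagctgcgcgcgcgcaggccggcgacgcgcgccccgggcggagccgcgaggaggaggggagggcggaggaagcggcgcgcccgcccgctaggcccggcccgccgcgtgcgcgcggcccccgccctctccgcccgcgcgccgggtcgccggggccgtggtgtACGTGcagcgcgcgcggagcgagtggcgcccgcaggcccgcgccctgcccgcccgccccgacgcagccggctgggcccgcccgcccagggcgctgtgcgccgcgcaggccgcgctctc
Pdk3 (chrX:93832101-93832400, minus strand): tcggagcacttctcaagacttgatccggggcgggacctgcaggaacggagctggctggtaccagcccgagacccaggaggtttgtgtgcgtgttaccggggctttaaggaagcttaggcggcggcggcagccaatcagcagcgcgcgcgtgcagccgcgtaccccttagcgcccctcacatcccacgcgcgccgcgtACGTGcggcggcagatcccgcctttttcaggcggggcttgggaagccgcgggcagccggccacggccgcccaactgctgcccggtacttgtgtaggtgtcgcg
Eno1 (chr4:150236458-150236757, plus strand): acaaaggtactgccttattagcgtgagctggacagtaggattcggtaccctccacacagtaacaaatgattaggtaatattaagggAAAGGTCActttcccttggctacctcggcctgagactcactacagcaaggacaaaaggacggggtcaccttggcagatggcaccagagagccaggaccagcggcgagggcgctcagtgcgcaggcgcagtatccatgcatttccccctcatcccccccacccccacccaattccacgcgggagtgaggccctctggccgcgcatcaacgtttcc

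Ldha held 5 matches to ACGTG, counted on both strands, and 2 of its sites were the palindrome CACGTG, which gives a match on each strand and is also the E-box bound by MYC and related factors. Bnip3 held 1 such palindrome, and Egln1 and Pdk3 held 1 match each. The first match lay at -145 from the start in Ldha, -108 in Bnip3, -68 in Egln1 and -53 in Pdk3, and the Eno1 element lay at -164 from the first of 3 annotated Eno1 starts. RefSeq promoters were found for 38 of the 39 genes (all but Slc2a3), and 22 of the 38 (57.9%) held ACGTG in at least 1 promoter, against 23.2% of 17492 protein-coding genes. CACGTG was held by 7 of the 38 (18.4%, against 8.91%), AAAGGTCA by Eno1 and Pfkfb1 (5.3%, against 1.49%), the AP-1 motif TGANTCA by Aldoa alone (2.6%, against 8.12%) and a perfect NF-kB consensus by 0 genes (against 0.177%). A match of letters describes the window and does not show binding.

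The lists held 36184 peaks (untreated Nur77 replicate 2) to 81467 peaks (LPS-treated GFP replicate 3), and called 140 to 199 of the 228 regions. The depth is unknown, because peak lists carry no read totals, so absence from a list means not detectable in that library and does not show closed chromatin. The line labels were checked at Nr4a1, where the region chr15:101270092-101272260 had a peak in 6 of 6 libraries of the Nur77 line and 0 of 6 of the GFP line. The other regions overlapping Nr4a1 did not separate the lines in this way, and the source of the peaks that did was not tested. Of 7 macrophage markers, 7 had a region in all 12 libraries that reached within 1 kb of a gene start or, for 3 without an annotated strand, of either end, against 1 of 4 T cell, 0 of 4 B cell, 1 of 4 fibroblast and 0 of 4 epithelial markers. A peak with its summit within 1 kb of an annotated start was found in all 12 libraries for 3 of the 7, and for 0 markers of the other types. Genes without an annotated strand could not be scored in this way. These include 3 of the 7 and also Cd4 and Col1a1, the markers of other types with a region in all 12 libraries. Chromosome 12 stood apart: of its 1054 regions called in all libraries, 42.9% in untreated cells and 47.7% after LPS ranked lower in the Nur77 line. Hif1a and Egln3 lie there and are given separately.

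Every one of the 39 genes had a merged region that covered its start or lay within 1 kb of it and was called in all 12 libraries, here called its start region. Peaks were ranked in each list by -log10 q, and a region was given the percentile of its best peak, with 100 as the strongest. Where a gene had several such regions, the one with the highest mean percentile was taken: for Pfkm this was 76.7, and a second start region, called in 11 libraries at 43.5, was not used. The median of these start regions was 93.1, with 23 above 90 and 7 below 80. Chosen in the same way, 57.2% of 17492 protein-coding genes had a start region, 50.3% had it in all 12 libraries, and the median percentile of those with a region was 84.7. By this choice from RefSeq promoters, 38 of the 38 genes with a promoter had it in all 12 libraries, with a median of 93.2. For Slc2a3, whose strand the annotation does not give, either end of the gene was allowed. The best peak is not always at the start, since merged regions can be long. Its median summit lay within 1 kb of the start for 34 genes, at 1077 bp for Hk3, 1221 bp for Aldoa and 1920 bp for Slc16a3, and at 8301 bp for Tpi1, whose region of 10804 bp reaches past the other end of the gene. The values of these 4 genes describe the region rather than the start.

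**Figure D1:**
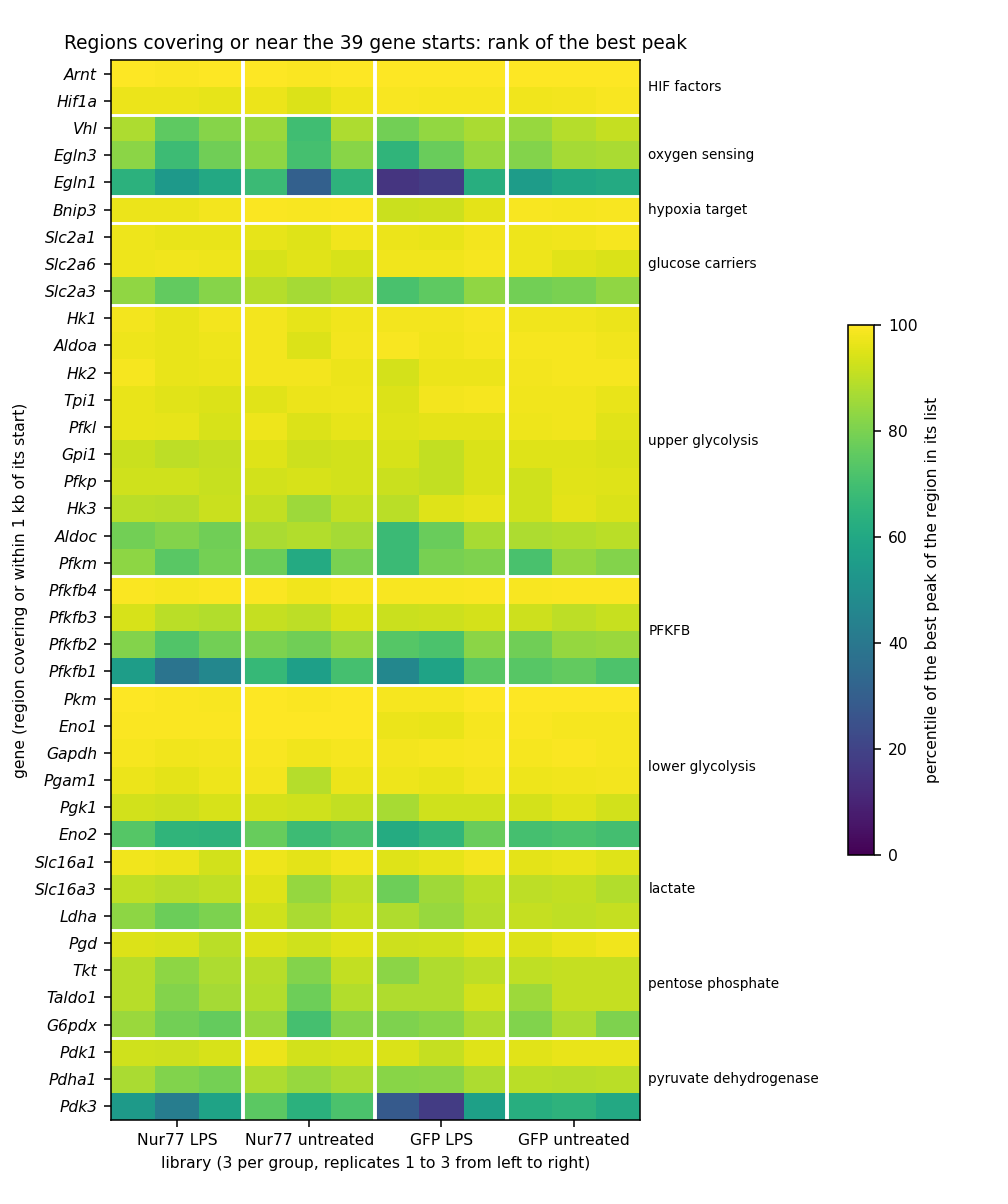
Percentile of the best peak in the start region of each of the 39 genes (rows, grouped by role) within the list of each of the 12 libraries (columns, 3 per group); yellow is the strongest end of a list. Arnt, Pkm and Pfkfb4 were near the top in every library, and Egln1, Pdk3 and Pfkfb1 were the lowest rows.

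The strongest start was that of Arnt, at 99.8 ± 0.2 (SD, n = 12). Pkm, the gene of pyruvate kinase, followed at 99.5 ± 0.5, Pfkfb4 at 99.1 ± 0.5, the enolase gene Eno1 at 98.9 ± 1.1 and Gapdh at 98.6 ± 0.4 (SD, n = 12 each). The weakest were Egln1 at 51.2 ± 18.8, Pdk3, the gene of a kinase that switches off pyruvate dehydrogenase, at 54.7 ± 17.0, and Pfkfb1, the liver form of the enzyme that makes and degrades fructose 2,6-bisphosphate, at 61.2 ± 12.9 (SD, n = 12 each). The spread over libraries was also the widest at these 3 starts.

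Within families the start regions differed in rank. Among the bifunctional PFKFB enzymes, Pfkfb4 and Pfkfb3, the inducible forms, had 99.1 ± 0.5 and 91.6 ± 1.8, against 79.3 ± 4.6 for Pfkfb2 and 61.2 ± 12.9 for Pfkfb1. Eno2, known as the enolase of neurons, had 69.8 ± 4.8 beside 98.9 ± 1.1 for Eno1. The region of Aldoa, the aldolase of muscle and most tissues, had 97.8 ± 1.1, with the median summit 1221 bp from the start. Aldoc, known from brain, had 83.3 ± 6.5. For phosphofructokinase, the liver form Pfkl had 96.1 ± 1.2, the platelet form Pfkp 93.1 ± 1.4 and the muscle form Pfkm 76.7 ± 6.8 (SD, n = 12 each). These are ranks of accessibility, not amounts of RNA.

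Isozymes and carriers restricted to other tissues were a contrast to the 39. Of 12 such genes, 5 had a region that reached the start, or either end where no strand is given, and 2 of these regions were called in all 12 libraries. The best summit of the Eno3 region (96.6) lay at -10063 bp from the Eno3 start, in a region of 13274 bp. Slc2a4 (84.2) has no annotated strand, as for Slc2a3 among the 39, so whether its region is at the start is undetermined. Pklr, which encodes the pyruvate kinase of liver and red cells, was called in 4 libraries at 30.8 and Pgam2 in 2 at 16.5. Genes with no start region included Hkdc1, Pgk2, Ldhb, Ldhc, Gapdhs and Slc2a2. Of 16 further genes of glucose and pyruvate handling, 14 had such a region in all 12 libraries (all but Pygl and Pdk4), and of 16 further hypoxia-response genes 13 did. A summit within 1 kb of the start could be scored only where a start is annotated. Of the start regions at such genes, 12 of 12 and 8 of 11 had it in all 12 libraries, against 34 of 38 among the 39 genes. Epas1, which encodes HIF-2 alpha, was called in 8 libraries at 44.5, and Arnt2 and P4ha2 had none.

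For comparisons between groups, the 26378 regions called in all 12 libraries were ranked within each library by -log10 q. Their percentile within that common set, from here on the common percentile, does not depend on how many weak peaks a list holds. Ranks were turned into normal scores and fitted with limma over all 26378 regions, with Benjamini-Hochberg adjustment at 0.05. A difference of 1 is 1 SD of the normal scores of all these regions. It spans fewer percentile points near the top or bottom of the ranking than in its middle. A higher or lower rank is relative to the other regions of the same library, and an absolute loss of accessibility cannot be read from it.

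The question of the LPS comparison was how 1 h of endotoxin altered accessibility in each line. In Nur77 cells, 2 of the 113 regions off chromosome 12 ranked higher after LPS and 15 ranked lower, 1.77% and 13.3%. Over all regions 8.58% ranked higher and 6% lower. In GFP cells 6 of the 113 ranked higher and 19 lower, 5.31% and 16.8%, against 10.7% and 8.57% of all regions. The median difference of the 113 was -0.12 in Nur77 cells and -0.15 in GFP cells, against -0.03 and -0.05 over all regions. Gene ends as a class also leaned down: 3.2% ranked higher and 4.7% lower in Nur77 cells, and 3.68% and 9.01% in GFP cells, with medians of -0.06 and -0.11. The 53 gene-end regions among the 113 had 1 higher and 7 lower in Nur77 cells and 2 higher and 11 lower in GFP cells. The 6 higher in GFP cells became 1 without GFP LPS replicate 1 or GFP untreated replicate 3, 3 without GFP untreated replicate 2 and 3 on untransformed percentiles. In Nur77 cells the 2 higher became 1 on untransformed percentiles and without Nur77 LPS replicate 3, and 4 without Nur77 untreated replicate 2.

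The libraries of these LPS comparisons are separate, and their calls overlapped in part. The regions that ranked higher in Nur77 cells, of Slc2a1 and Slc2a6, also did in GFP cells, where they made up 33.3% of 6. Of the 16 that ranked lower in Nur77 cells, chromosome 12 included, 9 ranked lower in GFP cells, which is 56.2% of the 16 and 45.0% of the 20 found there. The same overlap was not counted over all regions, so no background share stands beside these values. Both comparisons also came from the same fit, which pools the spread of a region over all 12 libraries. Without GFP untreated replicate 1, 9 regions off chromosome 12 ranked lower in GFP cells, and without GFP LPS replicate 2 or GFP untreated replicate 2 there were 12.

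**Figure D2:**
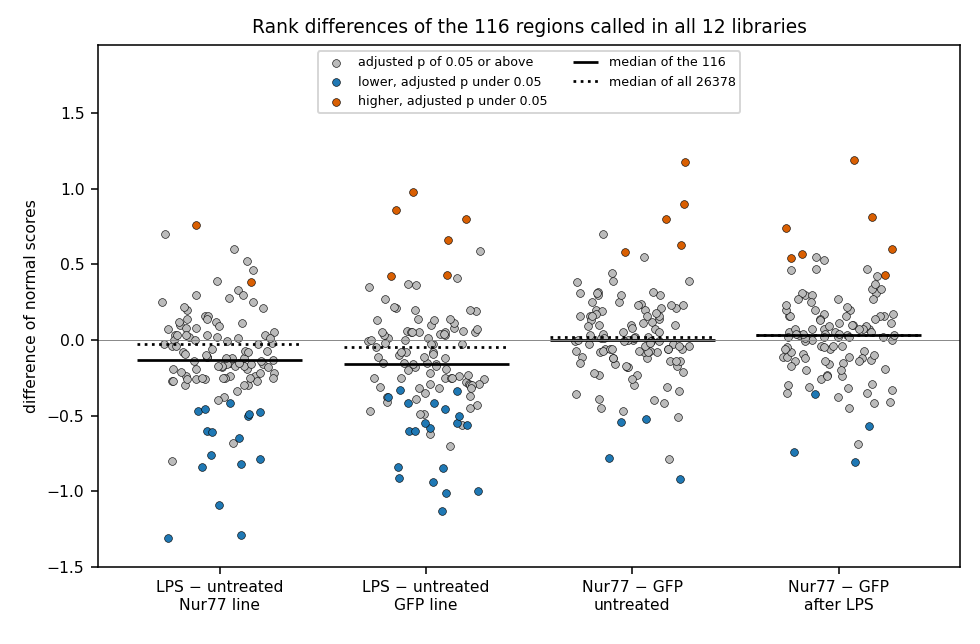
Difference of normal scores (vertical axis, first-named group minus the other) for the 116 regions called in all 12 libraries, in 4 comparisons; orange and blue points passed the limma test, solid lines are medians of the 116 and dotted lines medians of all 26378 regions. After LPS the blue points outnumber the orange in both lines, by 16 to 2 in Nur77 cells and 20 to 6 in GFP cells, chromosome 12 included.

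By role, again off chromosome 12 and against 6% lower in Nur77 cells and 8.57% lower in GFP cells over all regions, the lactate genes Ldha, Slc16a1 and Slc16a3 had 4 of 8 regions lower after LPS in Nur77 cells and 2 of 8 in GFP cells. All of these were regions of Ldha. Lower glycolysis (Gapdh, Pgk1, Pgam1, Eno1, Eno2 and Pkm) had 3 and 4 of 11 lower, all of them at Eno1 or Pkm. Upper glycolysis (the hexokinases, Gpi1, the phosphofructokinases, the aldolases and Tpi1) had 4 and 6 of 37 lower with 0 and 2 higher. Among pentose phosphate genes 0 of 14 changed in Nur77 cells and 2 were lower in GFP cells. For Arnt, 0 of 3 regions changed in either line. The carriers were the role with more regions higher than lower in GFP cells (2 and 0 of 15) and in Nur77 cells (2 and 1 of 15), against 10.7% and 8.58% higher over all regions, and in GFP cells the PFKFB genes were another (2 and 0 of 13). These counts rest on few regions per role.

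The increase with the lowest adjusted p in both lines was inside Slc2a1, the gene of GLUT1, the main glucose carrier of activated macrophages. The region (chr4:119124346-119128163) began 15.6 kb into the gene. Its common percentile was 91.0, 91.9 and 86.0 after LPS, against 73.2, 69.4 and 66.2 untreated, in Nur77 replicates 1 to 3. In GFP cells it was 90.9, 92.5 and 93.3 after LPS, against 71.9, 67.1 and 61.7 untreated. All 6 LPS libraries lay above all 6 untreated ones, and the differences were 0.76 ± 0.11 (SE, limma adjusted p = 1.3e-05) in Nur77 cells and 0.98 ± 0.11 (adjusted p = 1.2e-07) in GFP cells. The start region of the same gene stood at 97.1 ± 0.9 of each list (SD, n = 12) and did not pass the test in either line. In the authors' deposited lists the peak inside the gene had fold enrichments of 105.7, 104.5 and 71.4 after LPS, against 54.6, 29.3 and 49.2 untreated, in Nur77 cells, and of 49.6, 77.0 and 112.2, against 43.2, 44.3 and 40.7, in GFP cells. Unlike the ranks, these folds were not adjusted for differences between whole libraries.

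Slc2a6 encodes GLUT6, a hexose carrier of lysosomal membranes. Its start region (chr2:27025205-27029459) had common percentiles of 94.0, 96.6 and 94.9 after LPS, against 87.6, 94.0 and 87.6 untreated, in Nur77 cells. In GFP cells it had 96.2, 95.2 and 96.4, against 95.1, 88.9 and 86.0. The differences of 0.38 ± 0.13 (SE, limma adjusted p = 0.046) and 0.42 ± 0.13 (adjusted p = 0.02) rested on single libraries: adjusted p was 0.2 without Nur77 LPS replicate 2 in Nur77 cells and 0.16 without GFP untreated replicate 3 in GFP cells. The call in Nur77 cells was lost in 10 of 17 alternative settings and that in GFP cells in 5.

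Bnip3, a HIF-1 target whose product directs mitochondria to autophagy, ranked lower at its start after LPS in both lines. This region (chr7:138906601-138910904), which contains the promoter shown above, had common percentiles of 93.8, 95.3 and 96.2 after LPS, against 99.2, 98.7 and 98.6 untreated, in Nur77 cells. In GFP cells the values were 85.4, 84.0 and 87.1 after LPS, against 98.1, 96.6 and 97.8 untreated. Neither pair of groups overlapped, and the differences of -0.61 ± 0.11 (SE, limma adjusted p = 0.00021) and -0.91 ± 0.11 (adjusted p = 3.2e-07) held in all 17 alternative settings. The authors' deposited fold enrichments were 120.8, 131.5 and 115.4 after LPS, against 180.8, 122.7 and 172.6 untreated, in Nur77 cells, and 40.4, 55.5 and 87.8, against 139.1, 129.3 and 138.3, in GFP cells. The size of a change cannot be read from these unadjusted folds. At the Gapdh start region in GFP cells they were 69.5, 102.1 and 136.7 after LPS, against 126.1, 152.7 and 124.3 untreated. The rank of that region did not pass there (-0.09 ± 0.11, limma adjusted p = 0.63). A second Bnip3 region, 9.2 kb upstream of the gene, ranked lower in GFP cells (-0.42 ± 0.12, adjusted p = 0.011), which was lost without GFP LPS replicate 1 (0.061) or GFP untreated replicate 1 (0.091).

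**Figure D3:**
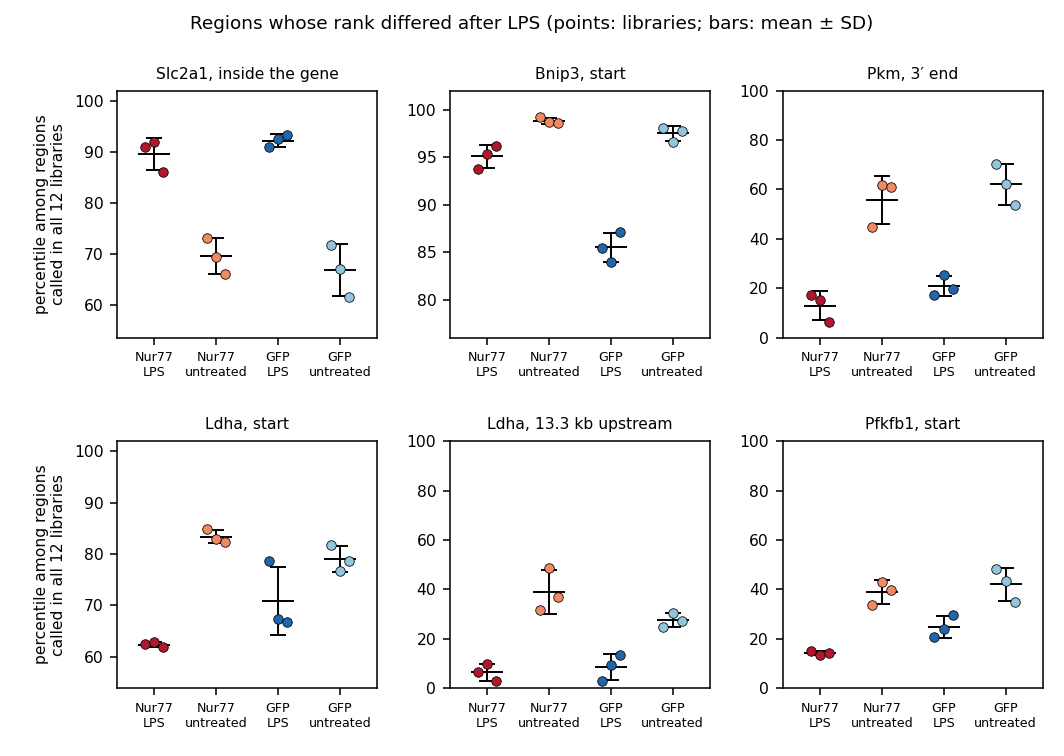
Common percentile (vertical axis; the scales differ between panels) of 6 regions in the 12 libraries; points are libraries and bars the mean ± SD of 3. In the panel of Slc2a1 the LPS libraries lie above the untreated ones in both lines, and in those of Bnip3 and of the 3′ end of Pkm they lie below.

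Pkm carried the largest change of rank among the 113 regions. A region at the 3′ end of the gene (chr9:59671444-59683424), which also covers the start of the neighbouring gene Gramd2, had common percentiles of 17.2, 15.2 and 6.4 after LPS, against 44.7, 61.8 and 60.9 untreated, in Nur77 cells. In GFP cells it had 17.4, 25.5 and 19.8, against 70.5, 62.1 and 53.7. The differences were -1.31 ± 0.19 (SE, limma adjusted p = 7.1e-06) and -1.13 ± 0.19 (adjusted p = 5.1e-05), with no overlap between groups in either line, and both held in all 17 settings. The start of Pkm stayed near the top of every list. Its difference was -0.30 ± 0.15 in Nur77 cells (adjusted p = 0.18) and -0.56 ± 0.15 in GFP cells (adjusted p = 0.0057), and the second was lost without GFP LPS replicate 2 (0.055).

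Ldha, the gene of the lactate dehydrogenase subunit that makes lactate from pyruvate, had 4 regions called in all libraries that ranked lower after LPS in Nur77 cells. At its start (chr7:46844795-46847774, the promoter with 5 ACGTG matches) the common percentiles were 62.4, 62.8 and 61.9 after LPS, against 84.8, 83.0 and 82.4 untreated, in Nur77 cells (-0.65 ± 0.11, limma adjusted p = 0.00012). In GFP cells they were 78.6, 67.3 and 66.7, against 81.7, 76.7 and 78.7, and these groups overlapped (-0.25 ± 0.11, adjusted p = 0.13). The region 13.3 kb upstream (chr7:46830165-46832492) had 6.4, 9.8 and 2.8 after LPS, against 31.4, 48.8 and 36.7 untreated, in Nur77 cells, and 2.8, 9.2 and 13.3, against 24.9, 30.3 and 27.2, in GFP cells. Its differences were -1.29 ± 0.25 (adjusted p = 0.00034) and -0.85 ± 0.25 (adjusted p = 0.013), the second lost without GFP LPS replicate 1 (0.088) or GFP untreated replicate 2 (0.058).

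Nearer to Ldha, the region 5.8 kb upstream ranked lower in GFP cells (-0.60 ± 0.12, limma adjusted p = 0.00066) and in Nur77 cells (-0.42 ± 0.12, adjusted p = 0.018). The call in Nur77 cells was lost without Nur77 LPS replicate 3 (0.085) or Nur77 untreated replicate 2 (0.14). The region 11.3 kb upstream ranked lower in Nur77 cells (-0.46 ± 0.12, adjusted p = 0.0081), which was lost without Nur77 untreated replicate 2 (0.082). For the lactate carriers, 0 regions of Slc16a1 (MCT1) or Slc16a3 (MCT4) passed the LPS comparison in either line.

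Eno1 had a region 8.4 kb upstream (chr4:150226447-150228308) with common percentiles of 10.4, 11.6 and 1.1 after LPS, against 38.5, 25.8 and 29.5 untreated, in Nur77 cells, and of 2.8, 7.5 and 7.6, against 36.5, 27.9 and 20.3, in GFP cells. Groups did not overlap in either line, at -1.09 ± 0.27 (limma adjusted p = 0.0053) and -1.01 ± 0.27 (adjusted p = 0.0079). Each call rested on a library, since adjusted p was 0.072 without Nur77 LPS replicate 3 and 0.055 without GFP untreated replicate 1. The Eno1 start ranked lower after LPS in Nur77 cells (-0.48 ± 0.13, adjusted p = 0.0075), though only in the normal score: on the plain percentile scale, where its values of 98.8, 99.2 and 99.0 after LPS stand close to 99.7, 99.8 and 99.9 untreated, adjusted p was 0.67.

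Other starts moved in 1 line or in both. At Pfkfb1 (chrX:150587574-150588822) the common percentiles were 14.9, 13.4 and 14.2 after LPS, against 33.8, 43.1 and 39.8 untreated, in Nur77 cells (-0.79 ± 0.18, limma adjusted p = 0.0028, held in all 17 settings). In GFP cells they were 20.6, 23.8 and 29.6, against 48.0, 43.3 and 34.7, a difference that missed the threshold (-0.49 ± 0.18, adjusted p = 0.062). Hk2, the inducible hexokinase, had 88.6, 93.6 and 90.5 after LPS, against 96.0, 96.2 and 97.1 untreated, in GFP cells (-0.46 ± 0.12, adjusted p = 0.0055), and 96.9, 94.5 and 94.3, against 95.9, 97.5 and 94.0, in Nur77 cells (-0.07 ± 0.12, adjusted p = 0.78). The Hk2 groups were thus apart in GFP cells and overlapped in Nur77 cells.

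At Pdk3 (chrX:93831646-93832751) the common percentiles were 13.7, 16.9 and 25.9 after LPS, against 48.3, 52.3 and 42.1 untreated, in Nur77 cells, and 7.9, 1.3 and 6.8, against 28.0, 22.9 and 16.8, in GFP cells. The differences were -0.84 ± 0.23 (limma adjusted p = 0.013) and -0.94 ± 0.23 (adjusted p = 0.0038). Aldoc had -0.49 ± 0.14 (adjusted p = 0.013) and -0.55 ± 0.14 (adjusted p = 0.0037). Ranked against gene ends alone, which leaned down as a class, neither start passed: adjusted p was 0.076 and 0.057 for Pdk3 and 0.084 and 0.08 for Aldoc, in Nur77 and GFP cells. Pdk3 was also lost in Nur77 cells without Nur77 LPS replicate 1 (0.068).

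The region 7.8 kb beyond the end of Gpi1, the glucose phosphate isomerase gene, and 3.2 kb from the start of Pdcd2l (chr7:34192260-34193498) ranked lower in Nur77 cells, at 36.0, 16.9 and 12.4 after LPS, against 39.5, 58.2 and 51.6 untreated (-0.82 ± 0.20, limma adjusted p = 0.0045). A region of Slc2a3, the gene of the high-affinity carrier GLUT3, at the end of the gene with the higher coordinate (chr6:122800616-122802657) had 62.9, 60.4 and 64.7 after LPS, against 76.8, 82.0 and 76.8 untreated, in Nur77 cells (-0.47 ± 0.12, adjusted p = 0.0066). Both held in all 17 settings in that line. In GFP cells the Slc2a3 difference was -0.15 ± 0.12 (adjusted p = 0.44) and that of Gpi1 -0.58 ± 0.20 (adjusted p = 0.04), which any 1 of the 6 GFP libraries left out brought to between 0.053 (LPS replicate 3) and 0.16 (untreated replicate 3).

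The other regions that ranked lower after LPS did so less firmly. A region 6.9 kb upstream of Aldoa did in Nur77 cells (-0.50 ± 0.17, limma adjusted p = 0.04, and 0.12 without Nur77 LPS replicate 2) and in GFP cells (-0.55 ± 0.17, adjusted p = 0.019, and 0.22 without GFP LPS replicate 1). A second Gpi1 region did in Nur77 cells (-0.76 ± 0.23, adjusted p = 0.023, and 0.19 without Nur77 untreated replicate 2), and another upstream of the gene did in GFP cells (-0.38 ± 0.11, adjusted p = 0.0098, and 0.086 without GFP untreated replicate 1). The start of Pgd, a pentose phosphate dehydrogenase gene, and a region inside it ranked lower in GFP cells, at -0.33 ± 0.12 (adjusted p = 0.045) and -0.60 ± 0.17 (adjusted p = 0.014). Without GFP untreated replicate 2 neither passed (0.099 and 0.079). In GFP cells the list was completed by the 3′ end of Eno1 (-0.50 ± 0.18, adjusted p = 0.049), a region 1.2 kb upstream of Vhl (-1.0 ± 0.36, adjusted p = 0.048) and the Pfkl region at the start of Cfap410 (-0.34 ± 0.12, adjusted p = 0.039). Without GFP untreated replicate 1 these had adjusted p of 0.16, 0.11 and 0.13.

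Regions that ranked higher in GFP cells alone belonged to Pfkfb4 and Pfkp. The Pfkfb4 region 8.0 kb upstream had 68.4, 47.3 and 55.5 after LPS, against 33.7, 36.1 and 26.0 untreated (0.66 ± 0.19, limma adjusted p = 0.013). That inside the gene had 0.43 ± 0.15 (adjusted p = 0.042), and 2 regions inside Pfkp had 0.86 ± 0.28 (adjusted p = 0.03) and 0.80 ± 0.25 (adjusted p = 0.023). All 4 were lost without GFP LPS replicate 1, at adjusted p of 0.098 and 0.09 for Pfkfb4 and 0.18 and 0.11 for Pfkp. In Nur77 cells their differences lay between 0.21 and 0.30 and did not pass.

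Whether the response to LPS itself differed between the lines was tested as an interaction. Of the 116 regions, 0 passed (lowest adjusted p = 0.58), as did 0 of all 26378, where the lowest adjusted p was 0.14. At an unadjusted p under 0.05 there were 4 of the 116 (3.45%, against 7.54% of all regions): the starts of Ldha (-0.40 ± 0.16), Egln1 (0.87 ± 0.35) and Hk2 (0.39 ± 0.17), and a Pfkl region (0.34 ± 0.16), given as the response in Nur77 cells minus that in GFP cells (SE). The calls made in 1 line only, above, are therefore not shown to differ between the lines.

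The question of the line comparison was how induced Nur77 altered accessibility, before and after LPS. In untreated cells 5 of the 113 regions off chromosome 12 ranked higher in Nur77 than in GFP cells and 4 ranked lower (4.42% and 3.54%), against 3.1% and 5.22% of all regions. The 5 became 2 with list length as a covariate and 3 on untransformed percentiles, and the 4 became 0 without GFP untreated replicate 1 or 2 and 2 without Nur77 untreated replicate 1 or 3. After LPS 7 ranked higher and 2 lower (6.19% and 1.77%), against 3.21% and 5.9%. All 7 were gene-end regions (of 53, 13.2%), a class in which 3.26% of all regions ranked higher and 3.33% lower. Ranked within gene ends alone the count was 3, and leaving out a library gave 3 to 8, with 4, 3 and 3 without Nur77 LPS replicates 1, 2 and 3. Untreated, 2 of the 53 ranked higher and 1 lower, against 1.89% and 3.11% of that class. The median differences of the 113 were 0 in untreated cells and 0.04 after LPS, against 0.02 and 0.03 over all regions.

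Eno1 ranked higher in the Nur77 line with and without LPS. Its start region (chr4:150235725-150241246), which contains the AAAGGTCA element shown above, had common percentiles of 99.7, 99.8 and 99.9 in untreated Nur77 cells, against 98.5, 96.2 and 96.7 in untreated GFP cells. After LPS it had 98.8, 99.2 and 99.0 in Nur77 cells, against 94.4, 93.1 and 95.8 in GFP cells. All 6 Nur77 libraries lay above all 6 GFP libraries, at 0.90 ± 0.13 (SE, limma adjusted p = 1.2e-05) untreated and 0.74 ± 0.13 (adjusted p = 0.00019) after LPS. The first missed the threshold on the plain percentile scale (adjusted p = 0.079), and the second held in all 17 settings. In the authors' deposited lists the fold enrichments were 208.1, 192.6 and 244.0, against 146.4, 125.8 and 124.8, untreated, and 183.1, 225.2 and 163.8, against 58.1, 79.4 and 129.8, after LPS. These folds are not adjusted between libraries. At the Gapdh start region after LPS they were 146.9, 146.6 and 116.0 in Nur77 cells, against 69.5, 102.1 and 136.7 in GFP cells. Its rank did not pass in that comparison (-0.05 ± 0.11, limma adjusted p = 0.85). Of 38 other regions within 500 kb of the Eno1 start region, 1 ranked higher and 2 lower untreated, and 3 and 2 after LPS. At Pfkfb1, the other gene with AAAGGTCA in a promoter, the start region did not pass between the lines. Its differences were -0.08 ± 0.18 (SE, limma adjusted p = 0.86) untreated and -0.38 ± 0.18 (adjusted p = 0.2) after LPS. A link between the element and these ranks was not tested.

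**Figure D4:**
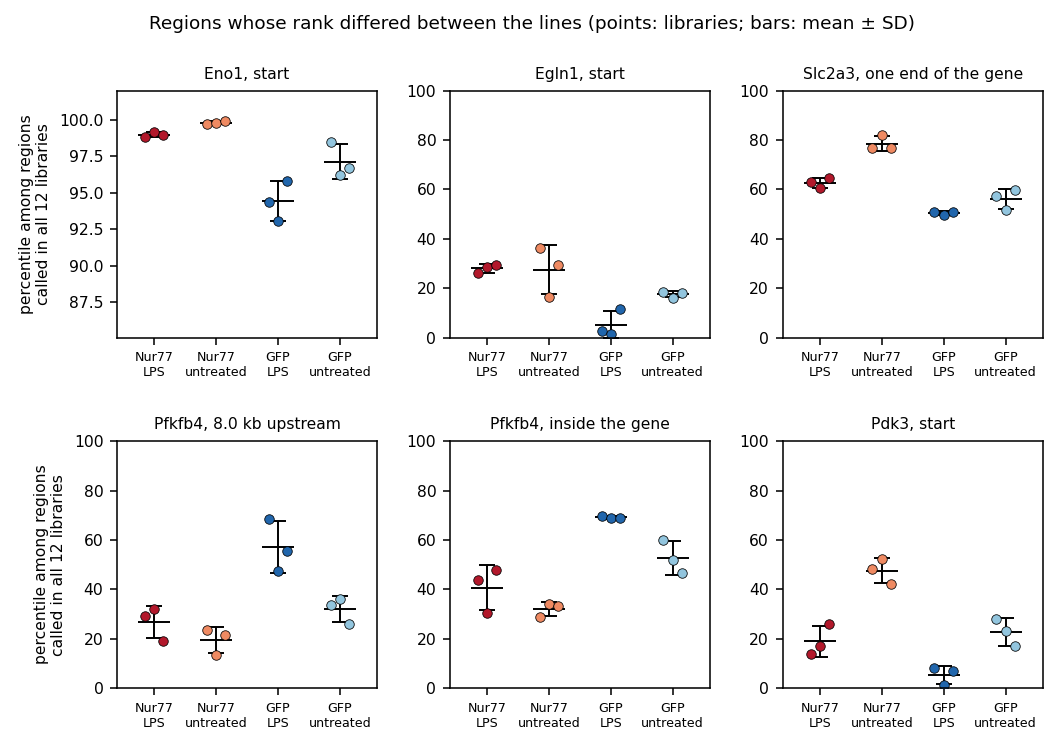
Common percentile (vertical axis; the scales differ between panels) of 6 regions in the 12 libraries; points are libraries and bars the mean ± SD of 3. The Nur77 libraries lie above the GFP libraries of the same treatment at Eno1 and Slc2a3 and below them in both Pfkfb4 panels.

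Egln1 encodes PHD2, the main oxygen-dependent hydroxylase of HIF-1 alpha. Its start (chr8:124947895-124950266) had common percentiles of 26.0, 28.7 and 29.2 in LPS-treated Nur77 cells, against 2.8, 1.3 and 11.6 in LPS-treated GFP cells (1.19 ± 0.25, limma adjusted p = 0.002). Untreated, the values of 36.2, 16.6 and 29.5 in Nur77 cells overlapped with 18.4, 16.1 and 18.0 in GFP cells (0.32 ± 0.25, adjusted p = 0.52). Within the GFP line the start ranked lower after LPS (-0.84 ± 0.25, adjusted p = 0.017, and 0.1 without GFP LPS replicate 2), and within the Nur77 line the difference was 0.03 ± 0.25 (adjusted p = 0.96). The Bnip3 start likewise ranked higher in Nur77 than in GFP cells after LPS (0.60 ± 0.11, adjusted p = 0.00049, values above), while untreated its 0.30 ± 0.11 did not pass (adjusted p = 0.1). Both calls after LPS held in all 17 settings.

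At Slc2a3 the end region described above had 76.8, 82.0 and 76.8 in untreated Nur77 cells, against 57.3, 51.8 and 59.6 in untreated GFP cells (0.63 ± 0.12, limma adjusted p = 0.00064, held in all 17 settings). After LPS it had 62.9, 60.4 and 64.7, against 50.8, 49.7 and 50.9 (0.31 ± 0.12, adjusted p = 0.1). The Nur77 libraries were higher without overlap in both treatments, and the test was passed in untreated cells. A second Slc2a3 region, inside the gene, ranked higher in untreated Nur77 cells (0.58 ± 0.17, adjusted p = 0.033), which was lost without Nur77 untreated replicate 1 (0.053), Nur77 untreated replicate 3 (0.14) or GFP untreated replicate 3 (0.19).

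Pfkfb4 went the other way. Its region 8.0 kb upstream (chr9:108981772-108983936) had 29.2, 31.8 and 19.2 in LPS-treated Nur77 cells, against 68.4, 47.3 and 55.5 in LPS-treated GFP cells (-0.81 ± 0.19, limma adjusted p = 0.0048). The region inside the gene, 30.6 kb from its start (chr9:109022530-109023869), had 43.7, 30.3 and 47.7, against 69.6, 68.8 and 68.9 (-0.74 ± 0.15, adjusted p = 0.0013). Both held in all 17 settings and neither pair of groups overlapped. Untreated, the region inside the gene was also lower, at 28.9, 34.0 and 33.3 in Nur77 cells, against 60.1, 51.8 and 46.5 in GFP cells (-0.54 ± 0.15, adjusted p = 0.019), but not without Nur77 untreated replicate 1 (0.07), GFP untreated replicate 1 (0.12) or GFP untreated replicate 2 (0.057). The start of the gene, 1 of the strongest of all, did not pass in any comparison.

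The remaining calls between the lines were each lost in 2 or more of the 17 settings. After LPS they were the start regions of Pdk3 (0.81 ± 0.23, limma adjusted p = 0.024) and Slc16a3 (0.43 ± 0.12, adjusted p = 0.025), the 3′ end of Eno1 (0.57 ± 0.18, adjusted p = 0.045) and the far end of the pentose phosphate gene Taldo1 (0.54 ± 0.17, adjusted p = 0.045), all higher in Nur77 cells. Without Nur77 LPS replicate 3, adjusted p was 0.13 for Pdk3, 0.077 for Slc16a3, 0.11 for Eno1 and 0.15 for Taldo1. In untreated cells 2 regions inside Pfkp ranked higher in Nur77 cells (1.18 ± 0.28, adjusted p = 0.0064, and 0.80 ± 0.25, adjusted p = 0.043), and with list length as a covariate they had adjusted p of 0.07 and 0.21. Regions of Hk3 (-0.92 ± 0.26, adjusted p = 0.019), Tkt (-0.78 ± 0.24, adjusted p = 0.04) and Arnt (-0.52 ± 0.15, adjusted p = 0.027) ranked lower, and each was lost without GFP untreated replicate 2, at 0.089, 0.11 and 0.15.

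On chromosome 12, the start of Hif1a (chr12:73906950-73908922) had common percentiles of 93.7, 94.7 and 92.2 in LPS-treated Nur77 cells, against 98.0, 96.8 and 95.9 in LPS-treated GFP cells (-0.36 ± 0.11, limma adjusted p = 0.035). With 47.7% of the regions of this chromosome lower in that comparison, the call does not stand out from its chromosome, and it was lost without GFP LPS replicate 1 (0.17). With LPS the difference at the Hif1a start did not pass, at -0.04 ± 0.11 in Nur77 cells (adjusted p = 0.89) and 0.10 ± 0.11 in GFP cells (adjusted p = 0.59). Egln3, which encodes the hypoxia-inducible hydroxylase PHD3, ranked lower at its start after LPS in GFP cells (-0.42 ± 0.13, adjusted p = 0.022, against 7.97% of the regions of the chromosome), which was lost without GFP LPS replicate 1 (0.11). A region inside Egln3 ranked lower after LPS in Nur77 cells (-0.60 ± 0.18, adjusted p = 0.025, against 7.87% of the regions of the chromosome), which was lost without Nur77 untreated replicate 2 (0.11), and lower in Nur77 than in GFP cells after LPS (-0.57 ± 0.18, adjusted p = 0.045), which was lost without GFP LPS replicate 1 (0.25).

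Weaker regions, which are absent from some lists, were compared by calls. Gained regions had a peak in 3 of 3 libraries after LPS (or in the Nur77 line) and in 0 of 3 untreated (or GFP) libraries, and lost regions the reverse. The smallest exact p of 3 against 3 libraries is 0.1. With LPS, 0 of the 217 regions off chromosome 12 were gained in either line, against 1.94% of all regions in Nur77 cells and 1.96% in GFP cells. Of the 217, 70 were gene-end regions. As a class, gene ends were gained less often than all regions, at 86 of 14295 in Nur77 cells and 80 in GFP cells. Lost regions numbered 1 in Nur77 cells (background 0.46%) and 8 in GFP cells (background 1.02%), and these became 7 without Nur77 untreated replicate 2, the shortest list, and 19 without GFP LPS replicate 3, the longest. Between the lines 0 were gained in untreated cells (0.308%) or after LPS (0.304%), 4 were lost untreated (3.4%) and 2 after LPS (2.18%). Leaving out a library, the 4 reached 11 (without Nur77 untreated replicate 3; 9 without Nur77 untreated replicate 1, 8 and 7 without GFP untreated replicates 1 and 2), and the 2 reached 7 (without GFP LPS replicate 2; 5 without replicate 1).

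**Figure D5:**
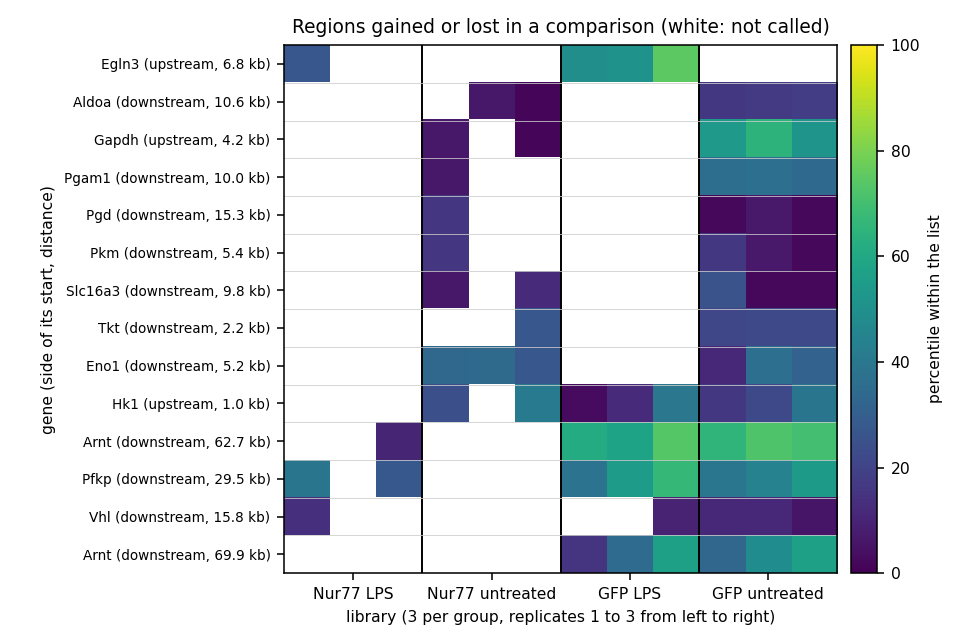
Percentile within each list (colour) of the 14 regions gained or lost in at least 1 comparison, in the 12 libraries (columns, 3 per group); white cells are libraries that did not call the region. Of the regions lost with LPS, that of Eno1 was called in all 6 untreated libraries and in none of the LPS libraries.

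The region lost with LPS in both lines lay inside Eno1, 5.2 kb from its start (chr4:150242374-150243460), at list percentiles of 33.7, 34.4 and 27.2 in untreated Nur77 cells and 11.0, 36.4 and 31.3 in untreated GFP cells. The others lost with LPS in GFP cells were called at 3.5 kb from Gapdh, 6.6 kb from Aldoa and 3.2 kb from Pgam1, inside Pkm, Pgd and Tkt, and at the 3′ end of Slc16a3. Each of these was also called in 1 or 2 of the 3 untreated Nur77 libraries. Highest in rank was the region upstream of Gapdh, at 53.6, 64.8 and 51.7 in untreated GFP cells. These 8 genes act in lower glycolysis, at the aldolase step, in lactate export and in the pentose phosphate pathway. On chromosome 12, a region 6.8 kb upstream of Egln3 (chr12:54210627-54211192) was gained with LPS in GFP cells (2.31% of the chromosome were), at 49.4, 51.0 and 74.9, and was called in 1 of 3 LPS-treated Nur77 libraries.

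Between the lines, a region 7.0 kb beyond Arnt and 5.1 kb from the start of Ctsk, the cathepsin K gene (chr3:95504262-95505409), had no peak in the 6 Nur77 libraries and had one in 6 of 6 GFP libraries, at 15.5, 34.9 and 57.0 after LPS and 33.1, 48.8 and 57.0 untreated. A neighbour at the 3′ end of Arnt, 0.5 kb from the Ctsk start, had a peak in 1 of 6 libraries of the Nur77 line, against 6 of 6 of the GFP line. Regions 8.2 kb beyond Vhl, 1.3 kb from the start of Irak2, and inside Pfkp were lost in untreated Nur77 cells, and a region 0.9 kb from Hk1 was lost in LPS-treated Nur77 cells. At the Arnt and Vhl loci the start nearest to the lost region is thus that of another gene.

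The 20292 regions called in 4 to 8 libraries were also tested over 6 against 6, each by Fisher's exact test (two-sided), which put 0 regions past an adjusted p of 0.05 for LPS or for the line (0% each). Of the regions tested, 47 belonged to these genes. At an unadjusted p under 0.05, 0 of the 47 had more calls after LPS and 4 had fewer (all regions 5.56% and 1.48%): those of Eno1 (0 of 6 against 6 of 6, exact p = 0.00216, the smallest this test can give, adjusted p = 0.0935), Aldoa, Gapdh and Slc16a3 (0 of 6 against 5 of 6 each, exact p = 0.0152, adjusted p = 0.215). In the Nur77 line 0 had more calls and 2 had fewer (all regions 0.651% and 7.32%), both near Arnt and Ctsk (0 and 1 of 6 against 6 of 6, exact p = 0.00216 and 0.0152, adjusted p = 0.0923 and 0.19).

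Start regions off chromosome 12 were also split by ACGTG in a promoter, with no test of the difference. Of the 20 with the motif, 4 ranked lower after LPS in Nur77 cells and 6 in GFP cells, with 0 higher. Of the 16 without it, 2 ranked lower in Nur77 cells and 1 in GFP cells, and 1 ranked higher in each line, that of Slc2a6. Over all gene ends 4.7% ranked lower in Nur77 cells and 9.01% in GFP cells. The median differences were -0.08 with the motif and -0.15 without it in Nur77 cells, and -0.20 for both in GFP cells.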

How the data were processed

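ATAC-seq peak lists of 12 libraries, called separately per library, were used as the authors deposited them. The submitters' processing notes name cutadapt 2.6, DiffBind 3.0.15 and mm10, and from the peak names, reads under mapping quality 20, duplicates and mitochondrial reads had been dropped and peaks kept at a q-value of 0.001. For the aligner and the peak caller, a name is not given in the sources used here. The deposited values are the authors' fold enrichment of each peak over the background of its library, and its -log10 q-value, both as the authors' files give them.

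Merging with bedtools 2.31.1 gave 100374 regions, 76042 of them in at least 2 lists. Genes were placed with a RefSeq table of GRCm38.p6 (21887 protein-coding genes), and gene-end regions lay within 1000 bp of an end of any gene. Tests were limma 3.58.1 (R 4.3.3, trend, all 12 libraries, 4 group means) on ranks, and Fisher's exact test on calls (Python 3.11.15, scipy 1.17.1). Both were tested on simulated data. A list's length affects calls more than ranks in the common set, and stands for no known depth. The start region of each gene is described, and at most 30 regions per comparison that passed a test or were gained or lost are named, largest difference first. The members and lists were chosen with earlier results of these data known. Alternatives changed list length, peak threshold, overlap, distance, ranking, covariates and libraries. Some genes of the wider lists are not reported here.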

Additional observations from a re-analysis of the deposited data

How the results depend on the processing

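Counts of regions off chromosome 12 kept within 1.5 times their reported value in the other settings, except as follows, and no difference changed sign. For most of them the cause was not tested. With lists of equal length, 3 regions were lost with LPS in Nur77 cells and 4 in GFP cells, 1 was gained with LPS in GFP cells, and 1 untreated and 3 after LPS were gained in Nur77 over GFP cells. At a -log10 q of at least 5, LPS in Nur77 cells gained 1 and lost 3, and Nur77 over GFP cells lost 7 untreated and 1 after LPS. With peaks covering at least 50% of a region, LPS in Nur77 cells gained 2 and lost 2, LPS in GFP cells gained 1, and Nur77 over GFP cells gained 2 after LPS. Within 5 kb, which holds fewer regions, Nur77 over GFP cells lost 2 untreated and 1 after LPS. On untransformed percentiles, 1 region ranked higher with LPS in Nur77 cells, 3 in GFP cells and 3 in untreated Nur77 over GFP cells. With list length as a covariate, 2 ranked higher in untreated Nur77 cells and 4 lower in LPS-treated Nur77 cells. Ranked within gene ends and other regions separately, 3 ranked higher in LPS-treated Nur77 cells.

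Leaving out each library in turn, LPS in Nur77 cells gained 0 to 1 and lost 1 to 7 (7 without Nur77 untreated replicate 2), and LPS in GFP cells gained 0 to 4 and lost 8 to 19 (19 without GFP LPS replicate 3). Nur77 over GFP cells gained 0 to 1 and lost 4 to 11 untreated (11 without Nur77 untreated replicate 3), and gained 0 to 2 and lost 2 to 7 after LPS (7 without GFP LPS replicate 2). Fisher's test called 0 to 1 regions less often in Nur77 cells (1 without GFP LPS replicate 1). With LPS, 1 to 4 ranked higher and 10 to 15 lower in Nur77 cells, and 1 to 6 higher (1 without GFP LPS replicate 1 or GFP untreated replicate 3) and 9 to 22 lower (9 without GFP untreated replicate 1) in GFP cells. Nur77 over GFP cells ranked 3 to 7 higher and 0 to 4 lower untreated (0 without GFP untreated replicate 1 or 2), and 3 to 8 higher and 2 to 3 lower after LPS (3 without Nur77 LPS replicate 2 or 3). Of the calls on single regions, chromosome 12 included, 8 of 18 with LPS in Nur77 cells, 5 of 26 in GFP cells, and 1 of 9 untreated and 5 of 11 after LPS in Nur77 over GFP cells held in all 17 settings.

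Libraries with the same replicate number did not deviate together more than others (correlations -0.157 to 0.144 in 18 pairs, against -0.146 to 0.218 in 36 others). With 3 libraries per group this cannot exclude that the numbers pair them. With the number as a block, 2 ranked higher and 15 lower with LPS in Nur77 cells, 6 and 17 in GFP cells, and 5 and 4 untreated and 6 and 2 after LPS in Nur77 over GFP cells.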

Other observations

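Related genes outside the 39, with chromosome 12 left out, gave a wider view of glucose and oxygen handling. Over all regions 8.58% ranked higher and 6% lower with LPS in Nur77 cells, and 10.7% and 8.57% in GFP cells. For Nur77 over GFP cells the shares were 3.1% and 5.22% untreated, and 3.21% and 5.9% after LPS. Of 27 regions called in all libraries at 16 further genes of glucose and pyruvate handling, 2 ranked higher and 1 lower after LPS in Nur77 cells, and 3 and 5 in GFP cells. Nur77 over GFP cells had 1 higher and 0 lower untreated, and 2 and 0 after LPS. Of 37 regions at 16 further hypoxia-response genes, 3 ranked higher and 5 lower after LPS in Nur77 cells, and 3 and 6 in GFP cells. In that group 5 ranked lower and 0 higher in untreated Nur77 than GFP cells, 0 differed after LPS, and 8 of 87 regions were lost untreated and 1 after LPS in the Nur77 line, against 3.4% and 2.18% of all regions. Of 12 regions at tissue-restricted isozyme genes, 1 ranked lower after LPS in GFP cells, and limma called 0 in the other comparisons. No reason for these counts was tested.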
